A study of Mus musculus with 6 samples.

Results

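Lysine, glutamate and glutamine are each encoded by a pair of codons that differ only in the last base, A or G. These 6 codons of the 64 in the deposited ribosome profiling tables were examined: AAA and AAG for Lys, GAA and GAG for Glu, and CAA and CAG for Gln. They are all the codons of these 3 amino acids. Whole brain homogenates of 3 WT mice (genotype WT +/+) and 3 mice that lack tRNA-Phe-1-1 (genotype Phe11 -/-, here tRNA-Phe-1-1-/-) had been profiled. The study's methods describe a germline CRISPR-Cas9 deletion on a C57BL/6N background, with the other tRNA-Phe genes intact. They name male littermate-matched WT mice as controls but also mice from different litters, and the reporting summary states that both sexes were used. The ribosome profiling methods give neither sex nor litter. The study's reporting summary gives the age of its mice as 10 weeks. Lys, Glu and Gln codons are not read by tRNA-Phe, so the comparison asks how codons of other tRNAs were covered when a single tRNA-Phe gene was lost.

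Each of the 3 amino acids has a tRNA whose anticodon begins with a modified uridine, which reads the A-ending codon and can also read the G-ending one by wobble pairing, and a tRNA whose anticodon begins with cytidine, which reads the G-ending codon only. The Elongator complex starts the modification of that uridine, and faults in this pathway are known to slow the A-ending codons and to affect the nervous system. Ribosome profiling sequences the mRNA pieces that ribosomes protect from a nuclease, so codons at which ribosomes wait gather more reads, provided that the read ends mark where the ribosome stood.

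A count in these tables is a read 5′ end at a given distance from the first base of a codon, from -30 to 2. At position 0 the read begins with the codon, at -14 the codon fills bases 15 to 17 of the read, and at 1 the base just before the read is the first base of the codon. Near positions are -14 to 0, where the whole codon lies in the first 17 bases of the read, and far positions are -30 to -21. The geometry is shown on 3 coding stretches in which a G is followed by 17 or more bases without G, from GENCODE mouse transcripts of the build GRCm39. They lie in Calb1, which encodes calbindin, a calcium buffer of Purkinje cells, and in Capza1, which encodes a subunit of the actin capping protein. Each line gives the G and the 17 bases after it, with the Lys, Glu and Gln codons in frame in capitals.
Calb1: GAAaatttccttcttAAA
Capza1 exon 6: gtttCAAccaAAAaactt
Capza1 exon 5: gaaacCAAatttccttta
The Calb1 stretch is at chr4:15900936-15900953 on the plus strand, in exon 8. A read that starts just after its G would place GAA at position 1 and AAA at position -14. The Capza1 stretches are at chr3:104742044-104742061 and chr3:104747235-104747252 on the minus strand, and hold CAA at -3 with AAA at -9, and CAA at -4. Reads on single mRNAs were not analysed here, so these lines show positions and not coverage.

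The 3 mice of each genotype had been added into 1 table by the authors. Replicate error could therefore not be measured, no test was made, and every difference below is between 2 summed tables. The tables list codons and not genes, so the labelled tissue could not be checked by marker genes. In pooled whole brain, fewer cells of a type and less RNA per cell cannot be told apart. Over the 3 reading frames the tables held 1366689 reads (WT) and 2045356 reads (tRNA-Phe-1-1-/-), and a single position held 363910 to 539833 counts in WT and 536238 to 812424 in tRNA-Phe-1-1-/-. The level used throughout is the share of a codon, its count as a percent of all counts of the 64 codons at the same position. As worked out from these codon counts, G made up 1.19% of the first 17 read bases in WT and 1.47% in tRNA-Phe-1-1-/-, then rose to 11.77% and 13.05% at base 18. Any codon with G drew its near counts from these few bases in both genotypes.

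The G-ending Lys codon AAG and its A-ending partner AAA parted sharply between far and near positions. AAG took a mean of 2.99% of the counts per far position in WT and 2.95% in tRNA-Phe-1-1-/-, but 0.118% and 0.163% per near position. The far level was thus 25.2 times the near level in WT and 18.1 times in tRNA-Phe-1-1-/-. AAA had 2.26% (WT) and 2.32% (tRNA-Phe-1-1-/-) at far positions and 2.75% and 2.99% at near ones, 1.22 and 1.29 times the far level. Its highest share was at position 0, with 4.86% in WT and 5.22% in tRNA-Phe-1-1-/-, where it ranked 9 and 6 among the 64 codons.

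The Gln pair behaved likewise. CAG fell from a far level of 3.06% in WT and 3.10% in tRNA-Phe-1-1-/- to a near level of 0.112% and 0.157%, 27.5 and 19.7 times lower. CAA held 1.18% (WT) and 1.26% (tRNA-Phe-1-1-/-) at far positions and 1.70% and 1.79% at near positions, 1.44 and 1.43 times the far level. Among near positions CAA was highest at -14, with 2.38% in WT and 2.42% in tRNA-Phe-1-1-/-.

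In the Glu pair both codons begin with G, and both were scarce near the read 5′ end. GAA had a far level of 2.08% in WT and 2.22% in tRNA-Phe-1-1-/-, and a near level of 0.105% and 0.115%. GAG had 2.998% and 3.03% at far positions, and 0.142% and 0.162% at near ones. The far level exceeded the near level 19.8 times for GAA and 21.1 times for GAG in WT, and 19.3 and 18.7 times in tRNA-Phe-1-1-/-. Counting the 2 codons of each amino acid together in WT, Lys went from 5.25% at far positions to 2.87% at near ones, Gln from 4.24% to 1.81%, and Glu from 5.08% to 0.247%.

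**Figure D1:**
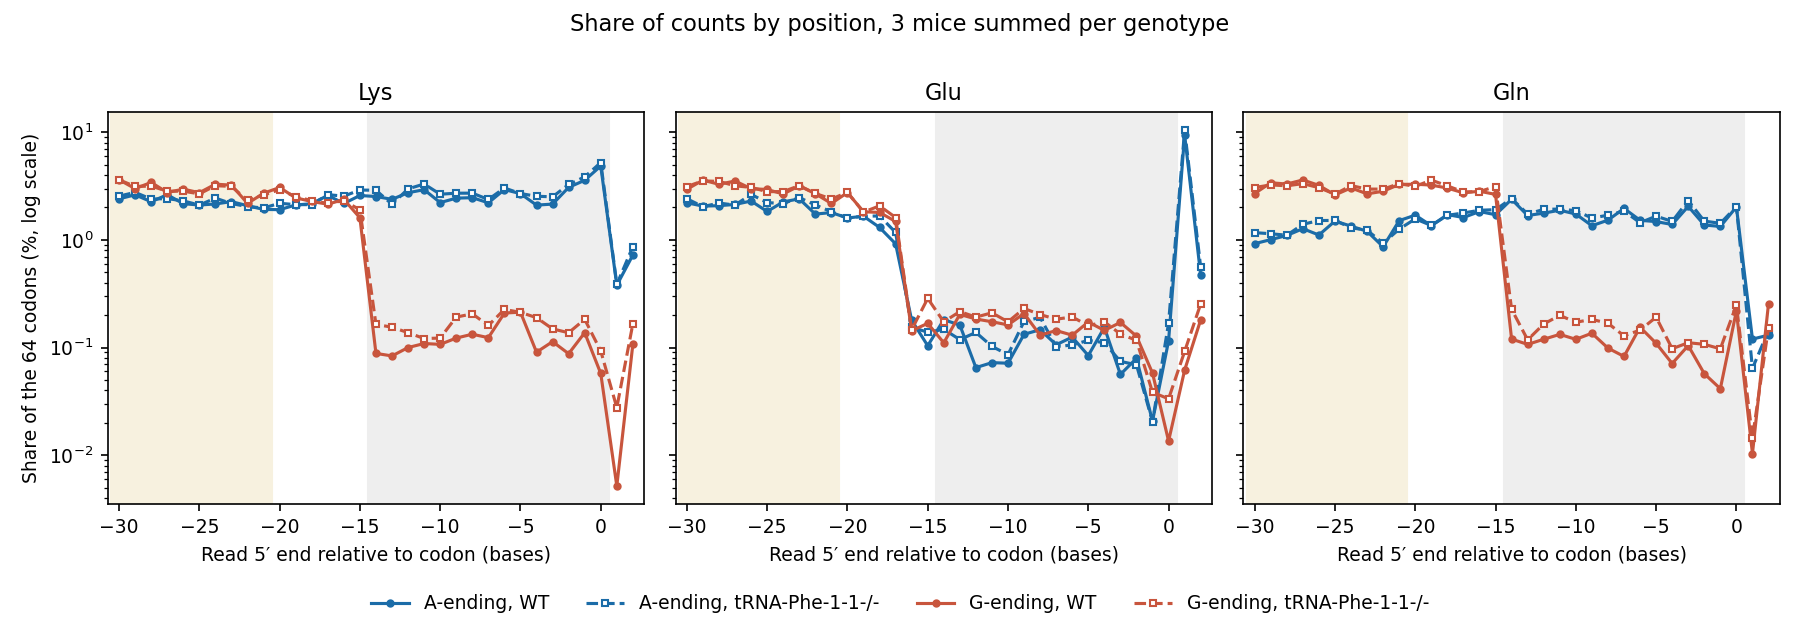
Share of all 64 codons (percent, log scale) at each distance of the read 5′ end from the codon start (bases), for the A-ending (blue) and G-ending (red) codons in WT (solid) and tRNA-Phe-1-1-/- brains (dashed), 3 mice summed per line, with near positions shaded grey and far positions shaded yellow. The G-ending Lys and Gln codons drop between -15 and -14, both Glu codons drop between -17 and -16, and the A-ending Glu codon peaks at position 1 with 9.47% in WT and 10.4% in tRNA-Phe-1-1-/-.

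The step from far to near fell at a different position for each place of G in the codon. For AAG the largest drop between neighbouring positions was from 1.603% at -15 to 0.088% at -14 in WT, an 18.2-fold drop, and from 1.90% to 0.164% in tRNA-Phe-1-1-/-, an 11.6-fold drop. CAG dropped at the same step, from 2.65% to 0.120% (22.1-fold) in WT and from 3.13% to 0.227% (13.8-fold) in tRNA-Phe-1-1-/-. At -14 the last base of these codons is read base 17. GAA and GAG dropped between -17 and -16, where the first base of the codon moves from read base 18 to 17. The drop was 5.12-fold for GAA and 10.3-fold for GAG in WT, and 7.57-fold and 11.0-fold in tRNA-Phe-1-1-/-. Neither codon without G showed such a step, as the largest drop between neighbouring positions from -30 to 0 was 1.35-fold for AAA and 1.55-fold for CAA in either genotype.

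Within a pair the scaling cancels, so the split can be read from the counts directly. At near positions AAA held 95.9% of the Lys counts in WT (188410 AAA against 8132 AAG; 95% Wilson interval 95.8 to 95.9) and 94.8% in tRNA-Phe-1-1-/- (306827 against 16662; 94.8 to 94.9). At far positions it held 43.1% (42.9 to 43.3) and 44.0% (43.8 to 44.1). CAA held 93.8% of the near Gln counts in WT (115961 CAA against 7673 CAG; 93.7 to 93.9) and 91.8% in tRNA-Phe-1-1-/- (183702 against 16392; 91.7 to 91.9). Its far percent was 27.7% (27.5 to 27.9) and 28.9% (28.7 to 29.0). The near and far percents of Lys and Gln did not overlap at any position in either genotype. The lowest near value of Lys was 92.7% and the highest far value 48.8%, both in WT, and for Gln they were 89.1% in tRNA-Phe-1-1-/- and 36.4% in WT.

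Glu had no such shift. GAA held 42.6% of the near Glu counts in WT (7173 GAA against 9674 GAG; 41.8 to 43.3) and 41.9% in tRNA-Phe-1-1-/- (11976 against 16586; 41.4 to 42.5), beside 41.1% (40.9 to 41.3) and 42.3% (42.1 to 42.5) at far positions. Single near positions scattered far more than for the other amino acids, from 24.8% at -3 to 89.5% at position 0 in WT. Position 0 stood apart from the rest, since without it the near percent was 40.9% in WT and 39.8% in tRNA-Phe-1-1-/-. The intervals count a read at several positions, treat PCR copies as separate reads and cover counting error only.

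The far split lay close to the codon use of the mouse genome. In the canonical coding sequences of 21464 mouse genes, 1 per gene and unweighted by expression, the A-ending codon made up 41.4% of Lys, 42.2% of Glu and 27.4% of Gln codons. The WT far percents differed from these by less than the range over single far positions, which was 39.6% to 48.8% for Lys, 36.5% to 45.8% for Glu and 22.9% to 36.4% for Gln. Between the windows, at -20 to -15, the A-ending percent was intermediate for Lys (49.3% in WT) and Gln (35.9%) and was 40.7% for Glu.

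**Figure D2:**
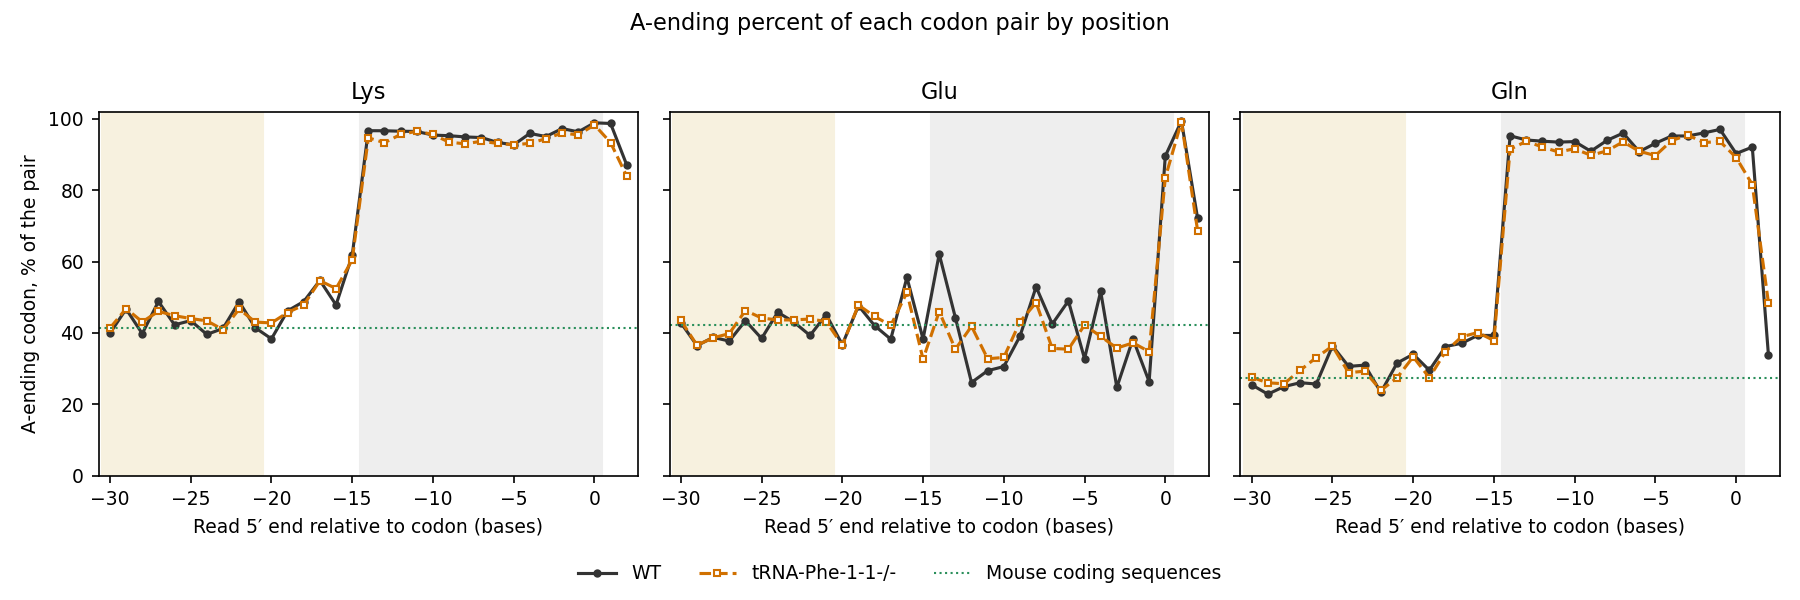
The A-ending codon as a percent of its pair at each distance of the read 5′ end from the codon start (bases), in WT (black) and tRNA-Phe-1-1-/- brains (orange), with the percent in mouse coding sequences as a dotted line. Lys and Gln sit near the dotted line at far positions (yellow) and at 89.1% or above at near positions (grey), while the Glu values scatter on both sides of the dotted line up to position 0, the highest near value.

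The same split was computed for all 13 synonymous pairs that end in A or G and share their first bases. In the 7 pairs without G in the first 2 bases, the A-ending percent was higher near than far in all 7, by 19.5 to 66.1 percentage points in WT. Gln had the largest rise of the 13, 66.1 points, and Lys the fourth largest, 52.8 points. Next to Gln stood CUA of Leu, with 65.8 points, and that order is not stable since on the log2 odds scale UUA of Leu was higher in tRNA-Phe-1-1-/- brains (5.03 against 4.79 for Gln). Of the 6 pairs with G in the first 2 bases, Glu alone had a rise in WT, of 1.497 points, and it turned to -0.36 points in tRNA-Phe-1-1-/-. The WT rise rested on position 0, as without it the near Glu percent was 40.9%, below the far 41.1%. The highest near percent in WT was that of CCA of Pro, 99.2%, and the lowest that of GUA of Val, 22.1%. At far positions CCA was again highest, at 79.2%, and CUA lowest, at 19.4%. The rise is bounded by the far level, so pairs that are mostly A-ending at far positions had less room to move.

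**Figure D3:**
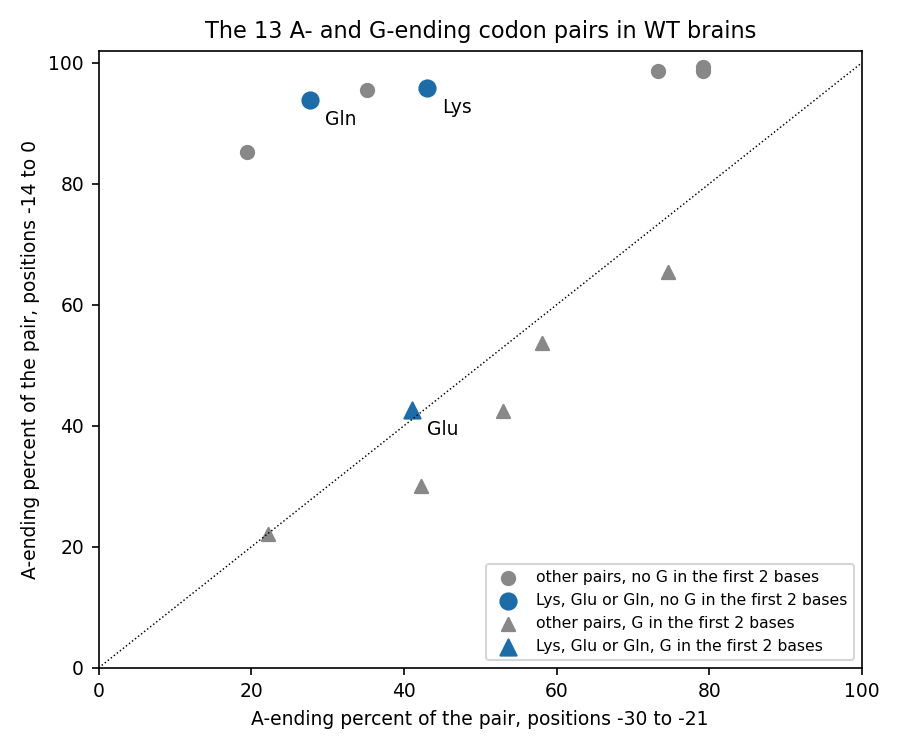
A-ending percent of the 13 codon pairs in WT brains at far (x axis) and near (y axis) positions, with Lys, Glu and Gln in blue, the other pairs in grey, and equal values on the dotted line. The 7 pairs without G in the first 2 bases (circles) lie at 85.2% to 99.2% on the y axis, and the 6 pairs with G there (triangles), Glu among them, lie on or below the line or within 1.497 points of it.

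GAA was the only 1 of the 6 codons with a high share just outside the near window. At position 1, where the G of GAA is the base before the read, it took 9.47% of the counts in WT (51098 counts) and 10.4% in tRNA-Phe-1-1-/- (84817 counts), and ranked 4 among the 64 codons in both. GAG, whose last base would be read base 2 there, took 0.062% and 0.092%. GAA was thus 99.4% of the Glu counts in WT and 99.1% in tRNA-Phe-1-1-/-. The 9 codons that have G as their first base only held 89.3% of all counts at position 1 in both genotypes, and GAA made up 10.6% of these in WT and 11.7% in tRNA-Phe-1-1-/-. In mouse coding sequences it is 16.9% of the same 9 codons, and 15.5% where a stretch of at least 17 bases without G follows its G.

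The G-ending Lys and Gln codons had few counts at position 1. AAG had 28 counts in WT, the lowest of any of the 6 codons in either table, and 225 in tRNA-Phe-1-1-/-, and CAG had 56 and 118. At position 2 the Gln split stood against its near split, as CAA was 33.8% of the pair in WT (488 CAA against 956 CAG) and 48.4% in tRNA-Phe-1-1-/- (793 against 844). CAG was the only 1 of the 6 codons with a lower share in tRNA-Phe-1-1-/- at that position, 0.256% in WT against 0.154%.

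Between the genotypes, all 6 codons had higher near shares in tRNA-Phe-1-1-/- brains, and the G-ending Lys and Gln codons stood highest among them. The log2 ratio of the summed near share, tRNA-Phe-1-1-/- to WT, was 0.46 for AAG and 0.50 for CAG. Their 95% counting intervals were 0.38 to 0.55 and 0.41 to 0.58, widened here and for all log2 values below as if every read had been counted at each of the 5 near positions open to it (4 at far positions). The values were 0.19 for GAG (0.11 to 0.27), 0.13 for GAA (0.039 to 0.23), 0.12 for AAA (0.10 to 0.14) and 0.08 for CAA (0.054 to 0.10). A rise was general in this window, with 51 of the 64 codons above 0. Of all 64 codons 33, or 51.6%, were at least 1.1-fold higher in tRNA-Phe-1-1-/- and 2, or 3.12%, at least 1.1-fold lower, and the median log2 ratio was 0.15. Among the 6 codons 3 were at least 1.1-fold higher (AAG, CAG and GAG) and 0 lower, a share close to the background of 51.6%. GAG was just inside this limit of 0.14 on the log2 scale and GAA just outside it.

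The near values of AAG and CAG were set beside the G content of the first 17 read bases. That content was worked out from the same codon counts, AAG and CAG included, so it is no independent measure. The mean G percent of the first 17 read bases was higher in tRNA-Phe-1-1-/- by 0.31 on the log2 scale. The 9 codons that have G as their last base only, AAG and CAG among them, had a median near log2 ratio of 0.42, and the 37 codons with G a median of 0.29. The 27 codons without G had a median of 0.04, with AAA in place 4 and CAA in place 8 from the top. The part of G content in the ratios of the members was not tested.

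Position by position, the near share of AAG was higher in tRNA-Phe-1-1-/- at 14 of 15 positions, with the Wilson intervals of the genotypes apart at 11. CAG was likewise higher at 14, with intervals apart at 12. AAA was higher at 14 positions, 13 of them with intervals apart, and lower beyond its intervals at -13 alone. CAA was higher at 13, and the intervals were apart upward at 9 and downward at 2. For GAA the intervals were apart upward at 7 positions and downward at 4, and for GAG at 7 and 2. Over the 6 codons the intervals were apart with a higher share in tRNA-Phe-1-1-/- at 59 of 90 near values (65.6%) and with a lower share at 9 (10%), against 47% and 20.3% of the values of all 64 codons. The largest single ratios belonged to low counts, such as a log2 ratio of 1.30 for GAG at position 0, from 62 counts in WT and 230 in tRNA-Phe-1-1-/-.

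At far positions the 6 codons hardly differed between the genotypes. The log2 ratio was 0.09 for GAA (0.070 to 0.12) and 0.09 for CAA (0.055 to 0.12), 0.04 for AAA (0.012 to 0.058), 0.02 for CAG (-0.0037 to 0.035), 0.02 for GAG (-0.0043 to 0.035) and -0.02 for AAG (-0.038 to 0.0016). In each pair the A-ending codon had the higher ratio. None of the 6 was 1.1-fold higher or lower, where 3.12% of all codons were higher and 0% lower, and the median over the 64 codons was -0.0043. GAA and CAA stood in places 5 and 6 of 64. Of the 60 far values, 25 (41.7%) had intervals apart with the higher share in tRNA-Phe-1-1-/- and 14 (23.3%) with the lower share, against 31.7% and 30.2% over all codons.

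**Figure D4:**
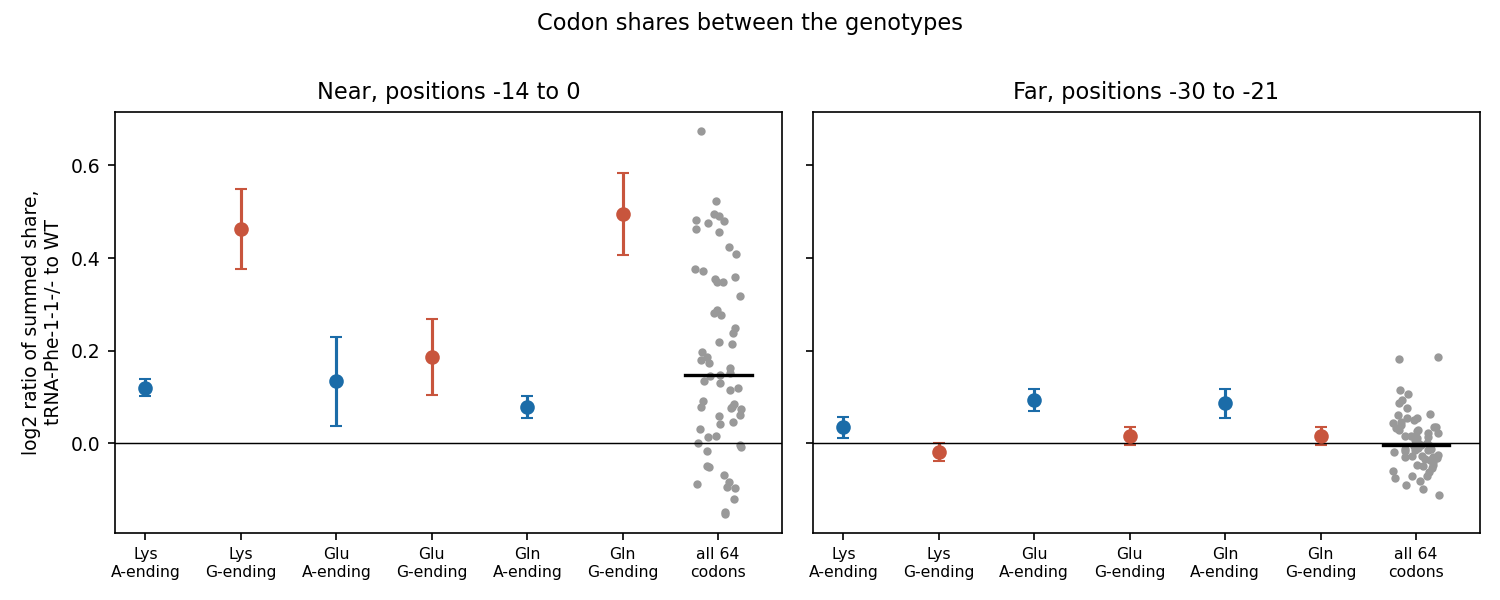
log2 ratio of the summed share, tRNA-Phe-1-1-/- to WT, at near (left) and far (right) positions for the A-ending (blue) and G-ending (red) codons, with widened 95% counting intervals, and for all 64 codons (grey points, median as a bar). At near positions the Lys and Gln G-ending codons reach 0.46 and 0.50 with the median of all codons at 0.15, and at far positions all 6 lie between -0.02 and 0.09.

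The split of Lys and Gln moved in opposite directions near and far. At near positions the odds of the A-ending codon were lower in tRNA-Phe-1-1-/- by a log2 ratio of -0.33 for Lys (-0.42 to -0.24) and -0.43 for Gln (-0.52 to -0.34), and the Glu value was -0.04 (-0.16 to 0.086). The Lys percent was lower in tRNA-Phe-1-1-/- at 12 of 15 near positions, the Gln percent at 13 and the Glu percent at 8. At far positions the log2 ratio was 0.05 for Lys (0.023 to 0.083), 0.07 for Glu (0.041 to 0.10) and 0.08 for Gln (0.044 to 0.12), and the A-ending percent was higher in tRNA-Phe-1-1-/- at 7, 7 and 6 of 10 positions. With positions -20 to 0 in place of the near ones, the Lys value turned to 0.037, the Gln value was -0.040 and the Glu value 0.044, so the near direction of Lys holds for -14 to 0 and not for that wider window. Among the other 10 pairs, 7 were below 0 near and 3 above it. Those 3 were Gly (0.29), Ala (0.19) and Val (0.07), all with G in the first 2 bases. The other 5 pairs without G in the first 2 bases were all below 0 near, from -0.46 to -0.14. At far positions 8 of the 10 were above 0 and 2 below it, AGA of Arg (-0.05) and CUA of Leu (-0.05). Opposite directions near and far were thus not particular to Lys and Gln. The median over all 13 pairs was -0.17 near and 0.06 far. Counted from the lowest near value, Gln was in place 2, Lys in place 5 and Glu in place 10.

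Reads that start on the different bases of a codon are separate reads from the same mice. The 3 reading frames therefore show each split in 3 sets of reads, which are not replicates. For reads starting on the 1st, 2nd and 3rd base, the near log2 ratio of the odds was -0.28, -0.29 and -0.46 for Lys, the same direction in all frames. For Gln it was -0.12 (-0.26 to 0.021), -0.69 and -0.50, and for Glu it was 0.27 (0.056 to 0.49), -0.12 and -0.37 (-0.62 to -0.12), so the Glu frames took both signs. At far positions Lys had 0.06, 0.05 and 0.05, Glu -0.0047, 0.08 and 0.19, and Gln -0.01, 0.23 and 0.03. The far value of Gln therefore rested on reads that start on the 2nd base, and that of Glu mostly on those that start on the 3rd.

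By the convention of fivepseq, the program used by the authors, a codon in the A site of the ribosome, where the tRNA is chosen, lies at -17. That placing holds only where read 5′ ends mark the ribosome, which was not tested here. At position 1, where the base before the read is their G, the 9 codons with G as first base only held 89.3% of counts in both genotypes. At -17 GAA rose from 0.919% in WT to 1.17% in tRNA-Phe-1-1-/-, a log2 ratio of 0.35 that ranked 2 among the 64 codons. CAA had 0.14 and GAG 0.12, both with Wilson intervals apart. AAA, AAG and CAG had 0.02, 0.02 and 0.03, with intervals that overlapped, and the median over all codons was 0.07. Of the 6 codons 3 were thus higher, against a background of 43.8%, and 0 were lower, against 25%. At the P and E site positions, -14 and -11, GAA had -0.30 and 0.50, the last place of the 64 codons at -14 and place 18 at -11, so the other site positions took both signs. The rise was not particular to -17, as GAA also had 0.35 at -18, with Wilson intervals apart. At -16 GAA was lower in tRNA-Phe-1-1-/-, with -0.21 and intervals apart. At -17 the first base of GAA is read base 18, the first base past those that lack G, where G was 13.05% in tRNA-Phe-1-1-/- and 11.77% in WT. These G percents include the GAA counts at -17, and the part of their difference in the GAA ratio was not tested.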

How the data were processed

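Ribosome profiling reads of whole brain from 3 WT and 3 tRNA-Phe-1-1-/- mice were processed by the authors. They trimmed adaptors with Trim Galore and cutadapt, removed reads on GENCODE non-coding transcripts with bowtie2, aligned the rest to GRCm39 with STAR and used fivepseq to count read 5′ ends by distance from each codon. The deposited values are raw whole-number counts in 1 table per genotype (mice summed), with 64 codons in rows and 33 positions in columns. The nuclease was not given in the sources used here. Single mice were not analysed here, so no test was run.

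Shares of the 64-codon sum at each position were added over near (-14 to 0) or far (-30 to -21) positions. Percents carry 95% Wilson intervals. log2 ratios carry 95% intervals from the counts, widened by the square root of the number of positions at which a read can be counted. The limit of 1.1-fold was applied to all 64 codons alike. All 6 codons were named, and of the other 10 A- and G-ending pairs those with the highest and lowest A-ending percent, with UUA and the pairs that went against the common direction added after their values were seen. The codons, windows and comparisons were chosen with earlier results of these data known. Codon use came from canonical coding sequences of GENCODE vM39 (GRCm39). Stretches were sought in the genes Calb1, Calb2, Ncald, Slc32a1 and Capza1. Only those with AAA or CAA in frame in their first 17 bases, or with GAA at their G, were kept. Calb1 and Capza1 alone held such stretches, and a further one in exon 2 of Capza1 was not shown.

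In 20 simulated tables with known ratios, unwidened intervals held the true near log2 ratio for 98.3% of 120 values and the true log2 odds ratio for 95.0% of 60. The simulation drew each position separately. It held no repeated counting of a read, no PCR copies and no spread between mice, so its coverage cannot speak to these. Python 3.11.15 was used with pandas 2.3.3, numpy 2.4.6 and scipy 1.17.1, and matplotlib 3.10.9 for the plots.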

Additional observations from a re-analysis of the deposited data

How the results depend on the processing

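No paired analysis was possible because each table is a sum over 3 mice, which also leaves no mouse to omit. Of 119 alternative values for 29 results, 52 stayed within the unwidened 95% counting interval (for a count, within 1.5 times), 65 moved beyond it and 2 reversed. Some log2 values counted as moved lie inside the widened intervals given above, such as -0.28 for the near Lys odds at in-frame positions. The setting without position 0 was chosen after the data were seen. Causes were not tested except where the construction gives them.

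Positions -20 to 0 include those where G is present, and gave A-ending percents of 77.8 (WT) and 78.3 (tRNA-Phe-1-1-/-) for Lys, 64.7 and 64.1 for Gln and 41.1 (WT) for Glu. The log2 odds ratio between the genotypes then turned from -0.33 to 0.037 for Lys, and became -0.040 for Gln and 0.044 for Glu. Positions -7 to 0 gave 95.001% for Lys, 43.0% for Glu and 92.3% for Gln in tRNA-Phe-1-1-/-, and log2 odds ratios of -0.26 for Lys and -0.36 for Gln. In-frame positions alone gave 96.2% and 95.4% for Lys, 41.2% and 45.9% for Glu and 92.2% and 91.6% for Gln (WT, then tRNA-Phe-1-1-/-), with log2 odds ratios of -0.28, 0.27 and -0.12. Without position 0 the percents were 95.5 and 94.4, 40.9 and 39.8, and 94.1 and 92.0. The mean of the per-position percents was 95.7 and 94.6 for Lys and 92.0 for Gln in tRNA-Phe-1-1-/-, and the mean of the per-position log2 odds ratios for Lys was -0.38.

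At far positions, -30 to -24 gave 44.3% for Lys in tRNA-Phe-1-1-/-, 40.5% and 41.8% for Glu and 27.1% and 29.5% for Gln. In-frame far positions gave 42.4% and 43.4%, 42.6% and 42.5%, and 28.6% and 28.4%, so the Glu and Gln percents were then no higher in tRNA-Phe-1-1-/-.

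The counts as deposited are higher in the deeper tRNA-Phe-1-1-/- table, so all 6 codons passed 1.1-fold near and 6 far, and the far AAG ratio reversed to 0.57. Under the other 3 scalings and summaries 3 or 4 codons passed near and 0 far, and all 6 near ratios stayed above 0.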
